A study of Mus musculus with 30 samples.

Results

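Mlf1, Nrep, Lmod3, Mettl21e and Actc1 are 5 genes of mouse quadriceps muscle whose signal was lower after 56 days on a low fat (LF) diet than at the start, and lower again after 56 days on a high fat (HF) diet. They were picked from 16475 measured gene entries because of this order of the group means, so their levels and differences are given as a description, with no test. There were 3 groups of 10 male mice, 1 mouse and 1 Affymetrix array each. HF day 56 mice were 20 weeks old and had eaten the high fat diet for 56 days, LF day 56 mice were 20 weeks old and had stayed on the low fat diet, and LF day 0 mice were killed at 12 weeks, before the diets diverged. All 30 animals came from a strain spelled C56BL/6J in the sample labels and C57BL/6J in the series text. All had a 3-week low fat run-in from 9 weeks of age. Age, time on the low fat diet and day of killing cannot be told apart when LF day 56 is set against LF day 0, here called the time step. HF day 56 was set against LF day 56 at equal age, here called the diet step.

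Actins polymerise into the thin filaments of the sarcomere, and skeletal muscle changes its alpha-actin as it matures. Actc1 encodes cardiac alpha-actin, the main actin of the adult heart, which is also made in fetal and regenerating skeletal muscle and gives way there to Acta1. Lmod3 encodes leiomodin-3, which starts and elongates thin filaments, and its loss in humans causes nemaline myopathy. Nrep (also called P311) encodes a small protein known from regenerating nerve and from wound tissue, where it raises TGF-beta production. Mlf1 encodes myeloid leukemia factor 1, named after a chromosome translocation in human leukemia and also abundant in muscle. Mettl21e belongs to the METTL21 family of protein lysine methyltransferases and is active in mouse muscle.

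The upstream sequences of Mlf1 and Actc1 are shown because only these 2 of the 5 genes had a usable entry in the reference sequences, and no link to their steps was tested. Those of the other 3 genes were not used here. They are the 150 bases before the annotated start in RefSeq (build GRCm38.p6), Mlf1 at chr3:67373947-67374096 on the plus strand and Actc1 at chr2:114052876-114053025 on the minus strand, both written 5′ to 3′. Capitals mark, in Mlf1, the cyclic AMP response element TGACGTCA and a CCAAT box and, in Actc1, a CArG box, the motif bound by serum response factor.
Mlf1: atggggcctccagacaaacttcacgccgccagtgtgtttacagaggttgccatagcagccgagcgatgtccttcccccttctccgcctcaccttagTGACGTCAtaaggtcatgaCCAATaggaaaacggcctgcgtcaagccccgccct
Actc1: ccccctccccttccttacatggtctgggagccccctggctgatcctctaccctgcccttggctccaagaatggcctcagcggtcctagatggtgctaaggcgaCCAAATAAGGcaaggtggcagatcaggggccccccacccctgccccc
Both strands of the 250 bases before the start were searched for 5 motifs, whose matches did not overlap. TGACGTCA lay 54 to 47 bases before the Mlf1 start and was found in 1.55% of 32851 promoters of the same length. The CCAAT box lay 35 to 31 bases before it and had a match in 33.9% of them. The CArG box lay 47 to 38 bases before the Actc1 start and was found in 1.47%. A further CCAAT lay on the other strand of Actc1, 235 to 231 bases before the start and outside the stretch shown. The E-box CANNTG, present in 66.2% of promoters, and the MEF2 site, in 2.92%, had no match in either window, which says only that these letters were not there. A match is a description of the sequence and not of binding.

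The tissue label was borne out by the arrays: all 12 measured skeletal muscle identity genes, such as Ckm and Ttn, were bright, and 0 of them passed the test in any comparison. Neutrophil genes varied widely between the arrays. The neutrophil gene S100a8 exceeded an intensity of 100 on 6 HF day 56, 4 LF day 56 and 7 LF day 0 arrays. The summed neutrophil list, 8 of 9 genes measured, had a median of 1274 (range 38 to 13447) in HF day 56, 44.4 (38.4 to 2613) in LF day 56 and 2006 (40.4 to 10318) in LF day 0. The arrays also formed sets of 21 and 9, the smaller with 3 arrays from each group, that differed in how strongly the 5′ ends of control RNAs read relative to their 3′ ends, and values within each set are given where they matter.

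Actc1, the fetal actin, was high on most arrays of the start group and low on most arrays after 56 days. Its intensity ran from 2355 to 4011 (median 3017) in HF day 56, from 2671 to 5036 (median 3505) in LF day 56, and from 2802 to 8531 (median 7116) in LF day 0. The start group was split, with 8 of its 10 arrays between 6980 and 8531 and the others at 2802 (replicate 7) and 3917 (replicate 4), inside the range of the later groups. The time step was −0.77 ± 0.16 and the diet step −0.30 ± 0.16 (log2, SE of the fit, n = 10 each). Between group medians, which those low arrays move little, the time step was −1.02 and the diet step −0.22. HF day 56 and LF day 56 overlapped widely, since only 4 HF arrays lay below the lowest LF day 56 array. In whole muscle, fewer cells of a type and less RNA per cell cannot be told apart.

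Acta1, the main alpha-actin of adult skeletal muscle and a close relative of Actc1 in coding sequence, was singled out for that kinship after its values were seen. It averaged 28897 in HF day 56, 28821 in LF day 56 and 28656 in LF day 0. Its difference between HF day 56 and LF day 0 was 0.01 ± 0.03 (log2, SE; limma adjusted p = 0.958). Acta1 holds the highest value of the whole table, and whether its signal had reached a ceiling was not tested. Whether Acta1 RNA adds to the Actc1 reading was not tested either.

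Lmod3, the filament nucleator, had the smallest steps of the 5. Its intensity ran from 940.2 to 1186 (median 997.3) in HF day 56, from 1107 to 1285 (median 1183) in LF day 56, and from 1225 to 1525 (median 1392) in LF day 0. All HF arrays lay below every LF day 0 array, and 9 of them below every LF day 56 array. The diet step was −0.24 ± 0.05 and the time step −0.20 ± 0.05 (log2, SE). Within the set of 21 arrays the diet step was −0.31, but within the 9 it was −0.06.

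Mlf1 was about as much lower in each step. Its intensity ran from 1282 to 1966 (median 1633) in HF day 56, from 1834 to 2272 (median 1981) in LF day 56, and from 2263 to 2639 (median 2391) in LF day 0. HF day 56 did not overlap LF day 0, and 8 of its arrays lay below every LF day 56 array. LF day 56 and LF day 0 all but parted, with 9 LF day 56 arrays below every LF day 0 array. The diet step was −0.30 ± 0.06 and the time step −0.26 ± 0.06 (log2, SE). Among the 13 arrays with S100a8 not above 100, the diet step was −0.18 and the time step −0.25.

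Nrep had the clearest separation of both steps together. Its intensity ran from 949.4 to 1416 (median 1092) in HF day 56, from 1220 to 1633 (median 1359) in LF day 56, and from 1624 to 2069 (median 1918) in LF day 0. Of the HF arrays, 9 lay below every LF day 56 array, and of the LF day 56 arrays, 9 lay below every LF day 0 array. The time step, −0.46 ± 0.06, was set against a diet step of −0.31 ± 0.06 (log2, SE), and the diet step minus the time step was 0.15 ± 0.11. That value was −0.0099 ± 0.17 in the set of 9 arrays, where the steps were of the same size. Among the 13 arrays with S100a8 not above 100 the diet step was −0.20 and the time step −0.54, a difference of 0.33 ± 0.15.

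Mettl21e, the methyltransferase gene, was dim throughout. Its intensity ran from 6.1 to 10.9 (median 9.0) in HF day 56, from 8.6 to 13.2 (median 11.0) in LF day 56, and from 12.3 to 45.6 (median 20.3) in LF day 0. It exceeded 20 on 0 HF day 56, 0 LF day 56 and 5 LF day 0 arrays, so the day 56 values lay close to the array medians of 8.9 to 9.4. The time step was −1.0 ± 0.17 and the diet step −0.29 ± 0.17 (log2, SE). With 16 added to each intensity before the log, which damps dim signals, they were −0.51 and −0.10.

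**Figure D1:**
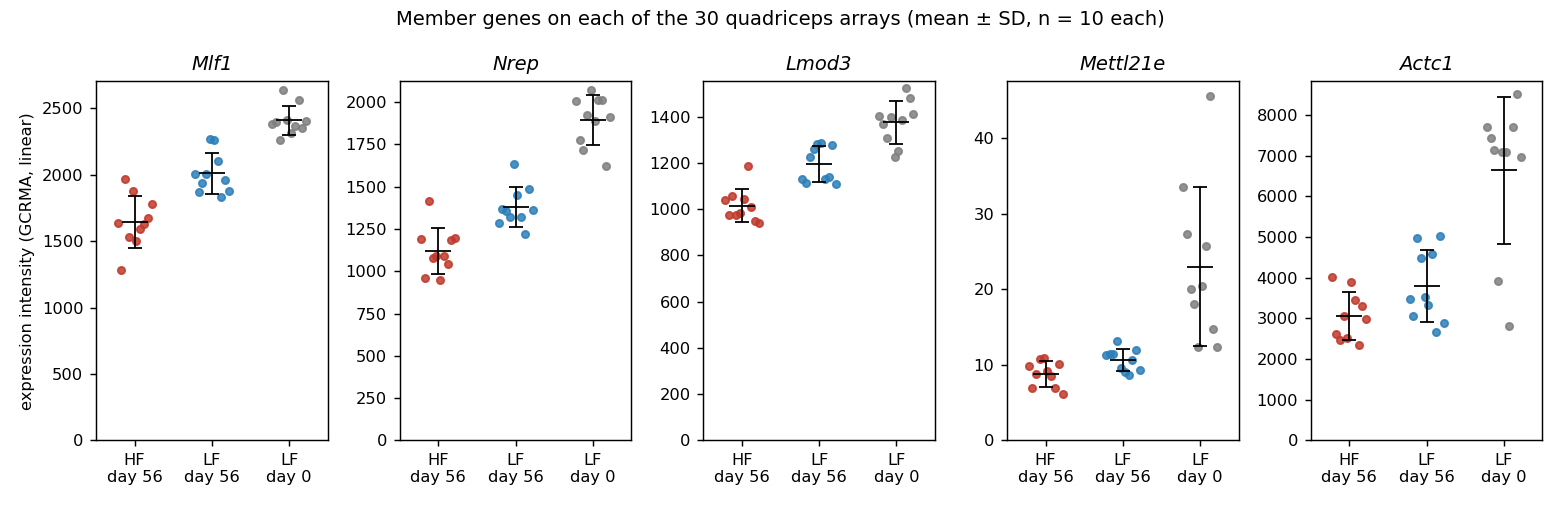
Linear GCRMA expression intensity of each gene on every array, with groups in the order HF day 56, LF day 56 and LF day 0; points are mice, and bars are the mean ± SD of 10. HF day 56 lies below LF day 0 without overlap for Mlf1, Nrep, Lmod3 and Mettl21e, while Actc1 has 2 low LF day 0 arrays.

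Mettl21e was at background in both day 56 groups, so its steps are set against the others only by size in the plot. For the other 4 genes the diet steps spanned a narrower range than the time steps. They were picked for lower means in both steps, so this is a description. Within the set of 9 arrays their diet steps spread more widely. Over all arrays, mean HF day 56 signal was 80.8% to 84.9% of LF day 56 signal (geometric means), a diet step between −0.31 and −0.24. Mean LF day 56 signal, against LF day 0, was 86.9% for Lmod3, 83.4% for Mlf1, 72.9% for Nrep and 58.6% for Actc1. The time step therefore made up 46.2% of the whole log2 difference for Lmod3, 47.0% for Mlf1, 59.8% for Nrep and 72.0% for Actc1. The diet step minus the time step was −0.03 ± 0.08 for Lmod3, −0.03 ± 0.10 for Mlf1 and 0.47 ± 0.28 for Actc1 (log2, SE). For Lmod3 it was −0.13 ± 0.09 in the 21 arrays and 0.20 ± 0.18 in the 9, and for Actc1 it was 1.05 ± 0.35 in the 9. Both steps use the LF day 56 arrays, so an error in that group's mean enlarges one step and shrinks the other.

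**Figure D2:**
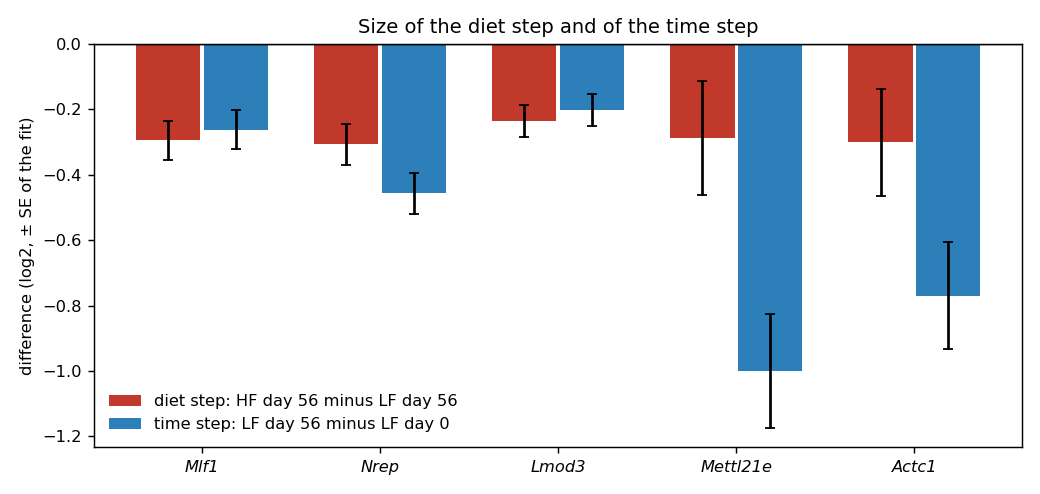
Log2 difference of group means for each gene, with the diet step (HF day 56 minus LF day 56) left of the time step (LF day 56 minus LF day 0); error bars are the SE of the fit, n = 10 arrays per group. The diet bars lie between −0.31 and −0.24, and the time bars run from −0.20 for Lmod3 to −1.0 for Mettl21e, whose day 56 signal was at background.

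Over all genes, a mean lower in both steps by any amount was found for 2848 of 16475 entries (17.3%). A mean lower by at least 0.2 (log2) in both steps was uncommon, found for 23 entries (0.14%). It was found for 19 of the 6844 bright entries, those that exceeded 20 on 5 or more arrays (0.278%). All 5 genes are among these 19, as their choice implies, with Lmod3 just inside on its time step of −0.20. Mettl21e counts as bright only through 5 arrays of LF day 0, the group where it was high, and so barely meets that rule. The other 14 included Egr1, Scd2, Tfrc, Odc1, Kcng4, Map2k6 and Wnt5a. HF day 56 lay below LF day 0 without overlap for 17 entries (0.103%), 4 of them among the 5 genes. Neither single step separated the groups fully for any of the 5, where 0.085% of entries did so in the time step and 0% in the diet step. In limma, 103 entries (0.625%) were lower and 37 (0.225%) higher in the time step. In the diet step 0 (0%) were lower and 4 (0.0243%) higher, with 841 at an unadjusted p under 0.05.

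Within the sets of 21 and 9 arrays all differences kept their sign, but the diet step was smaller in the 9 arrays than in the 21 for 4 genes and larger for Nrep. The diet steps in the 21 and the 9 arrays were −0.32 and −0.24 for Mlf1, −0.28 and −0.37 for Nrep, −0.40 and −0.03 for Mettl21e, and −0.39 and −0.09 for Actc1. The time step of Actc1 was −0.61 in the 21 and −1.14 in the 9. In the set of 9, S100a8 was above 100 on 2 HF day 56, 0 LF day 56 and 3 LF day 0 arrays, and the part of either in these differences was not tested.

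Whether the genes also move together from mouse to mouse was asked of their deviations from the group means, which hold nothing of the differences that chose them. Mlf1 and Nrep did. HF day 56 replicate 3 was highest of its group for both (Mlf1 1966, Nrep 1416), LF day 56 replicate 5 was highest for both (2272, 1633) and LF day 56 replicate 8 lowest for both (1834, 1220). The lowest HF day 56 array, and the highest and lowest of LF day 0, differed between Mlf1 and Nrep. Within single groups Pearson's r was 0.79 in HF day 56, 0.65 in LF day 56 and 0.43 in LF day 0. Over 30 arrays Pearson's r was 0.69 (permutation adjusted p = 0.0069) and Spearman's rho 0.58 (permutation adjusted p = 0.021), adjusted over 30 relations. Without the 2 arrays farthest from the Mlf1 median r was 0.55 (permutation adjusted p = 0.0441). It was 0.79 in the set of 21 (permutation adjusted p = 0.0222) and 0.33 in the set of 9 (permutation adjusted p = 0.773).

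The other 9 pairs did not pass, with r from −0.12 for Nrep and Actc1 to 0.28 for Lmod3 and Mettl21e. Actc1 stood at −0.09 with Mlf1. Apart from S100a8, 3 array properties were set against each gene, namely the mean of the fibroblast and collagen list, the slow myosin Myh7 and the spike-in signal, and none of these 15 relations passed. The strongest was Actc1 with the collagen mean (r = 0.50, permutation adjusted p = 0.0692). Myh7 had r = 0.41 with Lmod3, −0.37 with Mlf1 and −0.39 with Nrep (permutation adjusted p = 0.169 for each). Without the 2 arrays farthest from the Myh7 median, Lmod3 with Myh7 had r = 0.54 (permutation adjusted p = 0.0441). Mlf1 then had −0.20 and Nrep −0.33 with Myh7, and neither passed. Without the 2 arrays farthest from the median of the collagen mean, Actc1 had r = 0.25 with it (permutation adjusted p = 0.5465).

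Mlf1 and Nrep were also set against S100a8. Over 30 arrays r was −0.58 for Mlf1 (permutation adjusted p = 0.01065) and −0.55 for Nrep (permutation adjusted p = 0.0195). Of the 20 relations with an array property, only these 2 passed by r. Spearman's rho was −0.60 for Mlf1 (permutation adjusted p = 0.021) and −0.48 for Nrep, which did not pass (permutation adjusted p = 0.0958). In the set of 21, r was −0.61 for Mlf1 and −0.60 for Nrep (permutation adjusted p = 0.0309 and 0.0484). In the set of 9 it was −0.81 and −0.43, and neither passed. The S100a8 level fell into separate clusters of arrays, so the values are also given by class. Within the arrays above 100 r was −0.43 for Mlf1 and −0.31 for Nrep, and within the others −0.59 and −0.06, and none of these passed. In HF day 56 the 6 arrays with S100a8 above 100 read 1282 to 1636 for Mlf1, and the other 4 read 1675 to 1966. The same arrays read 949.4 to 1189 and 1091 to 1416 for Nrep. In LF day 56 Mlf1 read 1834 to 2003 on 4 arrays above 100 and 1871 to 2272 on the other 6, and in LF day 0 it read 2263 to 2639 on 7 and 2384 to 2562 on 3. For Nrep the values were 1220 to 1487 and 1287 to 1633 in LF day 56, and 1624 to 2014 and 2008 to 2069 in LF day 0. The classes of arrays thus parted for Mlf1 in HF day 56, all but parted for Nrep in LF day 0 and overlapped more widely elsewhere. Within the 17 arrays above 100, Mlf1 and Nrep had r = 0.57 (permutation p = 0.0252, adjusted 0.307), and within the other 13, r = 0.55 (permutation p = 0.106, adjusted 0.796). The part of neutrophil RNA in these values was not tested.

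**Figure D3:**
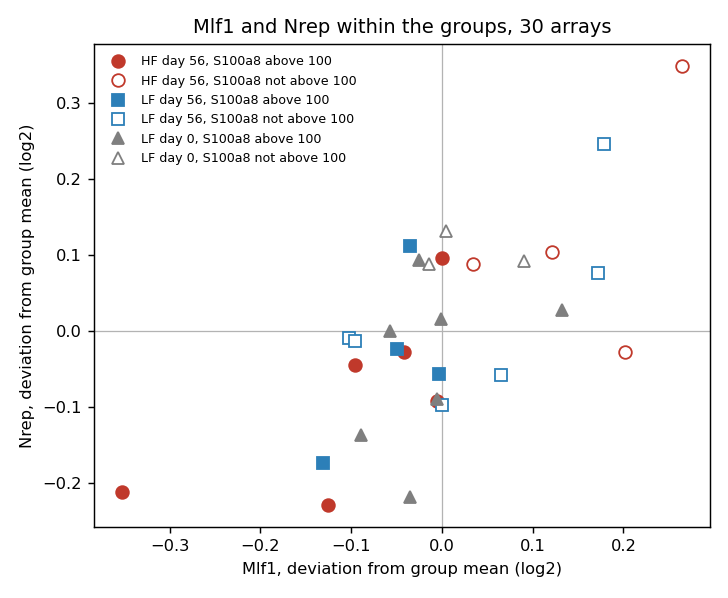
Deviation of Nrep from its group mean (log2, vertical) against that of Mlf1 (log2, horizontal) on 30 arrays; colour and shape give the group, and filled symbols mark the 17 arrays with S100a8 above an intensity of 100. The points rise together (r = 0.69), and the open HF day 56 symbols lie to the right of the filled ones.

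Relatives and partners of the 5 genes were 107 measured genes in 7 lists, and their calls in limma were near the shares over all entries. In the time step 1 passed as lower and 0 as higher, where 0.625% and 0.225% of all entries did. In the diet step 0 passed, where 0% of all entries were lower and 0.0243% higher. Between HF day 56 and LF day 0, 1 passed as lower and 1 as higher, where 0.807% and 0.783% of all entries did. At an unadjusted p under 0.05 there were 16 of the 107 (15.0%) in the time step, 7 (6.54%) in the diet step and 20 (18.7%) between HF day 56 and LF day 0, beside 10.1%, 5.1% and 11.0% of all entries. Egr1 was the only list gene lower by at least 0.2 in both steps (HF day 56 minus LF day 0 −1.27, limma adjusted p = 0.343). The median list gene differed by −0.01 in the time step and −0.00051 in the diet step, beside medians of 0.00089 and 0.0029 over all entries.

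Of 20 thin filament genes, which work beside Lmod3 and Actc1, 0 passed in any comparison. The whole differences, HF day 56 minus LF day 0, ran from −0.17 to 0.37 with a median of 0.01. Lmod2, a leiomodin of striated muscle, averaged 1150 in HF day 56, 1003 in LF day 56 and 853.3 in LF day 0, opposite in order to Lmod3 (0.37, limma adjusted p = 0.297). Without arrays with S100a8 above 100 the Lmod2 difference turned to −0.039. Tpm2, a tropomyosin that lies along the thin filament, differed by −0.09 (limma adjusted p = 0.277). Of 20 genes around serum response factor, the transcription factor that binds CArG boxes, 0 passed, with a median of −0.08. Mrtfb, one of its coactivators, differed by −0.56 (limma adjusted p = 0.0985).

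Of 19 embryonic and regeneration genes, to whose programme Actc1 belongs, 0 passed and the median was 0.01. Of these, 10 never rose above an intensity of 20, Myh3 and Myh8 (embryonic and perinatal myosin) and Myog among them. Myh8 differed by −0.26 (limma adjusted p = 0.375), and Myod1, a factor that sets muscle fate, by 0.33 (limma adjusted p = 0.398). Of 7 heart muscle markers, 6 never rose above 20, Myh6 and Nppa included. The remaining marker, Myl4, also on the embryonic list, averaged 46.8 in HF day 56, 47.7 in LF day 56 and 39.3 in LF day 0. The source of the Actc1 signal was not tested. Satellite cell markers, 6 measured, had 0 that passed.

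Of 11 METTL21 relatives and other methyltransferases with their substrates 0 passed, with a median of −0.07. Etfbkmt, which methylates the electron transfer flavoprotein, was nearest (−0.34, limma adjusted p = 0.0577), and Hspa8, a chaperone methylated by Mettl21a, differed by 0.11 (limma adjusted p = 0.479). Of 7 Mlf1 relatives and partners 0 passed, with Cops3, a COP9 signalosome subunit, at 0.09 (limma adjusted p = 0.455) and Ywhab, a 14-3-3 protein, at 0.13 (limma adjusted p = 0.406). Of 13 genes of TGF-beta signalling, the pathway tied to Nrep, 0 passed. Ltbp1, which holds latent TGF-beta in the matrix, differed by −0.22 (limma adjusted p = 0.49), and Smad2, a signal carrier of its receptors, by 0.15 (limma adjusted p = 0.4659).

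The 18 measured muscle growth and imprinted genes held both calls. Meg3, a maternally expressed noncoding RNA, ranged from 64.4 to 125.8 in HF day 56, from 81.7 to 154.8 in LF day 56 and from 103.7 to 236.0 in LF day 0. It fell in the time step by 0.54 (SE 0.13, limma adjusted p = 0.0405), while its diet step was 0.01. Mest, a paternally expressed gene, averaged 23.4 in HF day 56, 11.7 in LF day 56 and 10.7 in LF day 0. It was higher in HF day 56 than in LF day 0 by 0.90 (SE 0.23, limma adjusted p = 0.0323). Both calls were near the threshold and were lost when some single arrays were left out.

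**Figure D4:**
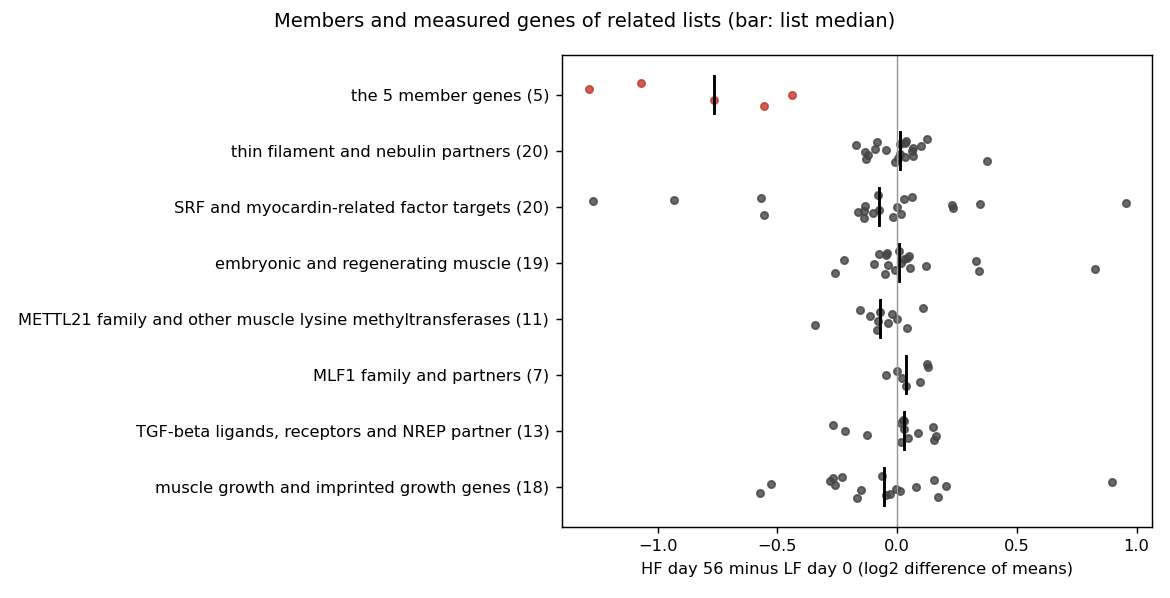
Log2 difference between HF day 56 and LF day 0 (horizontal) for the 5 genes in red and the measured genes of 7 related lists in grey, with list sizes in brackets; black bars are medians. The 5 genes lie between −1.29 and −0.44, and the list medians between −0.08 and 0.04.

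Several connective tissue markers fell in the time step. All 11 fibroblast and collagen genes were lower in the time step and 6 of them passed, where 0.625% of all entries passed as lower. In the diet step 0 of them passed. Their medians were −0.42 in the time step and 0.08 in the diet step. Their summed intensity ran from 11775 to 16696 in HF day 56, 12290 to 15626 in LF day 56 and 13760 to 22808 in LF day 0. All 9 tendon genes were lower in the time step, with a median of −0.48, and 5 of them passed, while 0 passed in the diet step. Of 6 bone and cartilage genes, 4 were lower in the time step and 2 passed, Ibsp (−2.08) and Col2a1 (−1.95). Ibsp ran from 3.3 to 11.1 in LF day 56 and 4.2 to 123.6 in LF day 0, and Col2a1 from 4.3 to 9.8 and 5.1 to 126.3. All 8 endothelial genes were lower in the time step and 1 passed, Cldn5 (−0.79). The neutrophil list had medians of −2.06 in the time step and 1.15 in the diet step, and 0 of 8 passed in either. All 5 adipocyte genes were higher in HF day 56 than in LF day 0 and 4 of them passed, where 0.783% of all entries passed as higher. The part of these cells in the time steps of the 5 genes was not tested.

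Genes with a like pattern were sought among bright entries outside the 5. Over the 30 log2 levels, the mean standardised level of the 5 genes was followed most closely by Hacd1 (r = 0.88), a muscle fatty acid elongation enzyme, Map2k6 (0.83), a kinase that activates p38, and Rftn1 (0.80), a lipid raft protein. Mtres1, Mpnd, Klhl23, Sel1l3 and Ift27 came next (0.79 to 0.74). Being chosen for this likeness, they get no test. Hacd1 had a diet step of −0.15 and a time step of −0.43 ± 0.07, and Rftn1 −0.08 and −0.59 ± 0.09 (log2, SE). Map2k6 alone of the 8 had 2 steps beyond −0.3, with −0.34 ± 0.08 in both.

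**Figure D5:**
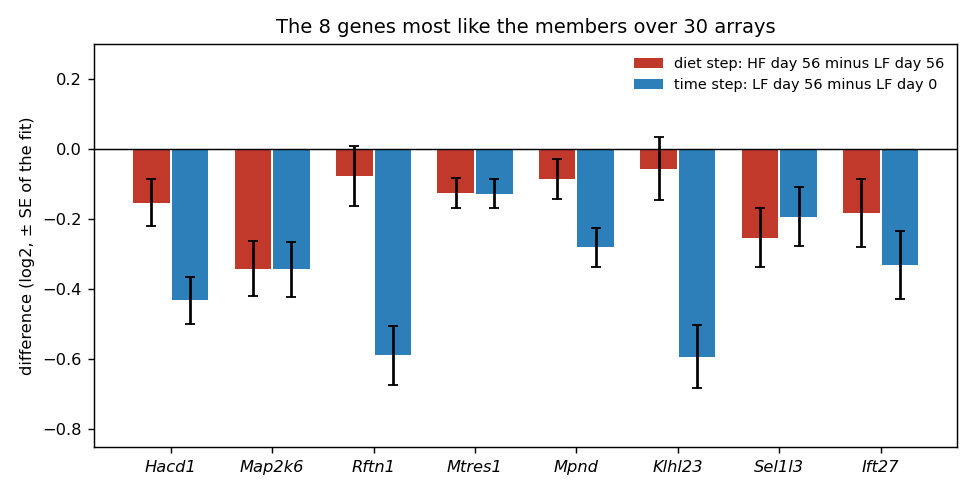
Log2 difference of group means for the 8 genes most like the mean of the 5, the diet step left of the time step; error bars are the SE of the fit, n = 10 arrays per group. Map2k6, Mtres1 and Sel1l3 have steps of similar size, while Rftn1 and Klhl23 differ mainly in the time step.

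Over deviations from the group means the order of likeness was another, and none of those 8 genes was among the first 8. Xrcc4 (r = 0.66), a DNA end-joining factor, Creb1 (0.66), which binds cyclic AMP response elements, and Twistnb (0.65), an RNA polymerase I subunit, led, followed by Mtif2, Zc3h6, Gins4, Dkc1 and Riox2 (0.62 to 0.60). For single genes, Mlf1 deviations were followed most by Gtpbp4 (0.78) and Ncl (0.77), both of the nucleolus, and Nrep deviations by Tlcd4 and Bace1 (0.75 each). Lmod3 stood nearest to Paxbp1 and Pnpt1 (0.57 each), Mettl21e to Rnf10 (0.65) and Zbtb20 (0.63), and Actc1 to Selenbp1 (0.69) and Mybph (0.67), a myosin binding protein. These are the highest coefficients among all bright entries over 30 arrays, which share the array sets and the S100a8 clusters.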

How the data were processed

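Total RNA of quadriceps muscle was hybridised to 30 Affymetrix arrays, 1 mouse each. For each gene and array the authors deposited a linear intensity from GCRMA per the submitters' processing notes (version not given in the sources used here). Values ran from 1.2 to 30599 and were taken to log2 with a pseudocount of 0. Of 16539 entries, 64 controls were left out. A single symbol was given for 15780 of the other 16475.

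Differences and SE come from limma 3.58.1 (R 4.3.3; lmFit and eBayes, 3 groups, no covariate, 27 residual degrees of freedom), with two-sided p-values adjusted by Benjamini-Hochberg over 16475 entries at a threshold of 0.05. Groups came from the labels. Correlations used deviations from group means and two-sided permutation tests of 100000 resamples within groups (Python 3.11.15, numpy 2.4.6, scipy 1.17.1), adjusted over 30 relations. The fit and the correlations were tested on simulated data. The widest gap between arrays in the spike-in signal (5′ relative to 3′ probe sets) parted the array sets.

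The members and the gene lists were chosen with earlier results of these data known, and support nothing on their own. Named list genes were those past the test in a step, or else the 2 of smallest p between HF day 56 and LF day 0. Named similar genes were the 8 (2 for a single gene) of highest Pearson r. Alternatives covered normalization, pseudocount, filters, variance model, array weights, array set, Myh7, S100a8, replicate number and leaving out each array. Group medians and S100a8 as a block or as strata were added after the data had been seen. The number of arrays limits the precision, and no coordinates other than those of the promoters were used.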

Additional observations from a re-analysis of the deposited data

Results flagged for a closer look

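Lmod3 on HF day 56 replicate 7 read 1186, apart from the other 9 arrays of its group, which lay between 940.2 and 1057. The gap to its nearest neighbour was 0.496 of the group's log2 range, above Dixon's 95% critical value for 10 arrays. Of the 15 sets of 10 values tested, 5 genes in 3 groups, this was the only one past that value, and chance passes about 1 in 20. Without that array the Lmod3 diet step was −0.26, against −0.24 with it.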

How the results depend on the processing

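Some alternative settings cannot move a step, such as leaving out an array of a group outside it or adding a block balanced over the groups. Filters and variance models cannot move it either. For Mettl21e and Actc1, 1 within-group SD exceeds the whole diet step, so their smaller diet steps in the 9 arrays count as within it. All 660 steps of the 5 genes, these included, were below 0, and 654 moved by less than 1 within-group SD. The others were the Lmod3 diet step and whole difference in the 9 arrays (−0.065 and −0.33), the Mettl21e time step and whole difference with a pseudocount of 16 (−0.51 and −0.61), and, without arrays with S100a8 above 100, the Mlf1 whole difference (−0.43) and the Mettl21e time step (−1.44). The diet step minus the time step also moved by more than 1 SD for Mettl21e without the S100a8 arrays (1.27), for Lmod3 in either set, for Actc1 in the 9 and for Nrep in the 9 and without the S100a8 arrays. The causes were not tested.

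The number of entries called, 140 in the time step, 4 in the diet step and 262 between HF day 56 and LF day 0, depended on the arrays used. It was 47, 0 and 134 in the 21 arrays, 11, 0 and 0 in the 9, and 13, 0 and 6 without arrays with S100a8 above 100, all with fewer arrays. The array set as a block gave 214 in the time step. The diet step had 7 calls with a pseudocount of 16, 8 among bright entries, 8 with trend and robust priors, and 12 with Myh7 as a covariate. Leaving out single arrays gave 102 to 155, 2 to 15 and 214 to 271. The diet count was 2 without LF day 0 replicate 5, 6 or 8, LF day 56 replicate 1, 2, 3, 5, 6, 7, 9 or 10, or HF day 56 replicate 2, 4, 6 or 8. It was 15, 10, 8 and 11 without HF day 56 replicates 3, 5, 7 and 9.

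Of the list genes, 1 passed in the time step and 2 between HF day 56 and LF day 0. These counts were 0 and 0 in the 21 arrays, in the 9, without arrays with S100a8 above 100 and with the replicate block. They were 2 and 4 with the array set as a block. The time step had 4 with Myh7 and 0 with quantile normalization or S100a8 as a block, and the whole difference had 1 with a pseudocount of 16. Leaving out single arrays gave 0 to 1 and 0 to 3, the whole difference having 0 without LF day 0 replicate 3 or HF day 56 replicate 8. Meg3 passed in 16 of 30 such fits in the time step (highest limma adjusted p 0.0917), and Mest in 22 of 30 (highest 0.0777). Without arrays with S100a8 above 100, Lmod2 reversed to −0.039 and Hspa8 to −0.0019, and Ywhab did in the 9 arrays, at −0.075. The Mlf1 and Nrep correlation did not pass in the 9 arrays (0.33) or in the strata with S100a8 above 100 (0.57) and not above it (0.55), which hold fewer arrays.

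The labels do not say that replicate numbers pair the mice, and the arrays were treated as unpaired. Same-numbered arrays of different groups had a median r of −0.10 between their deviations, beside −0.03 for other numbers. Of 30 arrays, 5 correlated best with their own number. Such values cannot show whether the mice were paired in some other way. Every group holds the same replicate numbers, so a fit with the replicate number as a block cannot change the differences. That fit gave 104, 1 and 209 calls. Signal near background limits Mettl21e.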
